A study of Homo sapiens with 18 samples.

Results

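The genes described here are 9 that encode secreted or membrane-bound proteases of the trypsinogen, plasminogen activator and matrix metalloprotease families, or a receptor of one of them. They are the trypsinogens PRSS1, PRSS2 and PRSS3, the plasminogen activators PLAU and PLAT, the urokinase receptor PLAUR, the matrix metalloproteases MMP7 and MMP14, and the membrane serine protease ST14. A probe set, the unit of measurement on these Affymetrix arrays, was counted as a member when the platform's probe table tied it to 1 of these symbols and to no other, which gave 30 probe sets of the 49395 on the array, for genes out of 18132 that had a probe set of their own. PRSS1 had 3 of them, PRSS3 had 2, PLAU 3, PLAUR 5, PLAT 7, MMP7 4, MMP14 4 and ST14 2. PRSS2 had none of its own, so 8 of the 9 genes had a probe set, and PRSS2 was seen only through 2 shared probe sets that also name other trypsinogens or the pseudogenes PRSS3P1 and PRSS3P2. The genes were chosen by how they differed between treated and control arrays in an earlier reading of the same values. The differences with AZ628 and with IKKα shRNA, and the contrast of AZ628 effects in HT29 against WiDr, which is built from the same values, are therefore a description. No p is given for these genes in them, and a call there only marks where a value fell against the threshold used for all probe sets.

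The 18 arrays came from WiDr and HT29, established human colorectal cancer lines that both carry mutant BRAF. WiDr is held to be a derivative of HT29, so the lines are closely related. The 6 groups of 3 arrays were WiDr with AZ628, an inhibitor of RAF kinases, WiDr with a short hairpin RNA (shRNA) against IKKα, WiDr with a control shRNA, WiDr with vehicle, HT29 with AZ628, and HT29 with vehicle. IKKα is a kinase of NF-κB signalling and is encoded by CHUK. The dose and duration of AZ628, the number of hairpins and whether the cells were pools or clones are not given in the sources used here. The design text gives the treated arrays of HT29 under the name HT28, and the sample labels were followed. The labels do not say whether arrays of the same group were separate cultures, and p-values therefore cover no more than array-to-array spread, possibly a technical one.

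Signals are log2 values made by the authors with RMA, so 1 unit is a 2-fold difference, and over all arrays they ran from 2.19 to 14.61. Correlations between arrays were 0.9963 to 0.9981 within groups and 0.9580 to 0.9958 between groups. CHUK read 7.68, 7.23 and 7.65 with IKKα shRNA and 9.68, 9.45 and 9.78 with control shRNA, a log2 difference of -2.12 (SE 0.13, limma adjusted p = 4.19e-10). DUSP6, a phosphatase gene read as an output of ERK signalling, differed by -4.14 and -4.66 with AZ628 in WiDr and HT29. Of 13 markers of colorectal epithelium, 10 or 11 lay above the median probe set (6.04) in every group, led by KRT18 at 14.37 in WiDr with vehicle. CDH17, CDX1 and GPA33 lay below that median in WiDr with vehicle, at 5.24, 5.49 and 5.43. Fewer cells of a type and less RNA per cell cannot be told apart in such bulk samples.

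Trypsinogens are inactive precursors made chiefly by pancreatic acinar cells. Enteropeptidase activates them in the gut, and trypsin in turn activates other digestive enzymes and cleaves protease-activated receptors. Urokinase, the product of PLAU, converts plasminogen to plasmin while bound to its receptor PLAUR, and PLAT encodes tissue plasminogen activator, which converts plasminogen mainly at fibrin. MMP7 (matrilysin) is a secreted metalloprotease made by epithelial tumour cells, MMP14 is a membrane-anchored metalloprotease that activates MMP2, and ST14 encodes matriptase, an epithelial membrane protease that can activate urokinase and other precursors. Promoters of several such genes are known to respond to AP-1, the FOS and JUN family of factors that act downstream of ERK.

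The bases just upstream of the start are shown for the genes with the largest differences whose window held an AP-1-type match, because the 3 trypsinogens share most of these letters. Each window runs 250 bases up to the base before the start in RefSeq's promoter table (build GRCh38.p14), written 5′ to 3′ on the gene's strand. Capitals mark the letters TGANTCA, searched on both strands, a motif that reads the same way on either strand apart from its middle base.
PRSS1: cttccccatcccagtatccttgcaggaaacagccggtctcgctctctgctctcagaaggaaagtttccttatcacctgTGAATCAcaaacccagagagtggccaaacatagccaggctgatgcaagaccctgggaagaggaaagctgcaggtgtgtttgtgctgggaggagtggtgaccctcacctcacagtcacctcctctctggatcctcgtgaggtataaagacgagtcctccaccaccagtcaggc
PRSS2: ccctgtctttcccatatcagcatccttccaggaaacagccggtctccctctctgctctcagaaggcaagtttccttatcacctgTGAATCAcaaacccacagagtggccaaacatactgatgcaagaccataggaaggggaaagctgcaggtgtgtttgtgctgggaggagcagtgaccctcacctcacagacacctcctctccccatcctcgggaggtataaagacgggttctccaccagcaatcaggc
PRSS3: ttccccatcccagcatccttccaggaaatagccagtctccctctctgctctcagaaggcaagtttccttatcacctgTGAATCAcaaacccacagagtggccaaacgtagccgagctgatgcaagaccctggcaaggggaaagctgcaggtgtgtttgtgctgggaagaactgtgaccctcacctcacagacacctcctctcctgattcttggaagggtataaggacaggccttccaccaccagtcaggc
PLAUR: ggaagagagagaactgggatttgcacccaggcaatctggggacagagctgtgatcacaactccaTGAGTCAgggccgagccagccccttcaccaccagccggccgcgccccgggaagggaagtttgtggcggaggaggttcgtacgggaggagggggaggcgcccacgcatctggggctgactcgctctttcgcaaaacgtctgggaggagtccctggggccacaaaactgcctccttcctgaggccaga
MMP7: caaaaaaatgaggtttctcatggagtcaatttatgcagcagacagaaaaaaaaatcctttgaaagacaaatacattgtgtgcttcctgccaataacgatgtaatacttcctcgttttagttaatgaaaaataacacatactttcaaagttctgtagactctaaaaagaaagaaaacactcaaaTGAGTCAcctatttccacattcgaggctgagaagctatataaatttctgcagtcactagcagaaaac
PRSS1 lies on the plus strand at chr7:142749472-142753072 with its window at chr7:142749222-142749471. PRSS2 lies on the plus strand at chr7:142770970-142774560 with its window at chr7:142770720-142770969. The PRSS3 window, chr9:33795311-33795560 on the plus strand, lies inside the span of that gene (chr9:33750679-33799231), at the start of a shorter transcript. PLAUR (chr19:43646095-43670169) and MMP7 (chr11:102520508-102530747) lie on the minus strand, with windows at chr19:43670170-43670419 and chr11:102530748-102530997. Counted from the start, the first base of the match stood at -172 in PRSS1, -166 in PRSS2, -173 in PRSS3, -186 in PLAUR and -67 in MMP7. The trypsinogens all read TGAATCA, and PLAUR and MMP7 read TGAGTCA. The aligned windows of PRSS1 and PRSS2 were identical at 86.7% of columns, those of PRSS1 and PRSS3 at 88.0% and those of PRSS2 and PRSS3 at 85.2%. At least 1 TGANTCA was present in 6.57% of the 35116 windows of this length, and in 5 of the 7 genes described here that had a window used. The share is per window and the count per gene. Since 3 of the 5 are the closely alike trypsinogen windows, no enrichment is read from this. PLAU (chr10:73908832-73917494, 2 windows) and MMP14 (chr14:22836585-22847758) held none, and ST14 (chr11:130159782-130210362) and PLAT are named only. One form of NF-κB-type motif was searched on both strands, the letters GGGA and TTCC with any 2 bases between them. It was in 1.4% of all windows and in none of these 7 genes. Other forms of the motif were not searched, so their absence is not shown. The matches given here are of letters, and binding was not measured.

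With IKKα shRNA, the leading PRSS1 and the shared trypsinogen signals stood far above all other groups, PLAU was higher on its leading probe set, and PLAUR and MMP7 stayed within 1 log2 unit of both WiDr controls. With AZ628, PLAUR, PRSS3 and 3 of 4 MMP7 probe sets were lower in both lines. The leading probe sets of ST14, MMP14 and PRSS1 and the shared trypsinogen signals were higher, though not every probe set of these 3 genes was called. A probe set was called higher or lower when its limma adjusted p, over all 49293 probe sets that are not controls, was under 0.05. With IKKα shRNA against control shRNA, 14 of the 30 member probe sets were called higher and 2 lower, where 14.2% of all probe sets were called higher and 15.5% lower. Against vehicle, 15 were called higher and 0 lower, with 16.1% and 15.1% over all probe sets. At an unadjusted p under 0.05 the count of lower ones against vehicle was also 0. With AZ628 in WiDr, 4 were called higher and 11 lower, where 20.2% of all were called higher and 19.0% lower. With AZ628 in HT29, 4 were called higher and 10 lower, where 19.6% of all were called higher and 18.7% lower. The median log2 difference of the members was 0.22 for IKKα shRNA against control shRNA (0.03 over all probe sets), -0.02 for AZ628 in WiDr (0.00) and -0.04 for AZ628 in HT29 (0.00). Since these contrasts chose the genes, nothing is read from the counts.

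PRSS1, cationic trypsinogen, showed the largest difference of the member genes on its leading probe set, the one with the highest mean over all arrays (11716820_x_at). It read 12.01, 12.18 and 12.19 with IKKα shRNA, against 5.70, 5.79 and 5.87 with control shRNA and 5.74, 6.12 and 6.06 with vehicle. All IKKα shRNA arrays lay above every other array of the series, and the arrays with either control overlapped. The log2 difference from control shRNA was 6.34 (SE 0.11), or 81.0-fold, and from vehicle 6.15 (SE 0.11), or 71.1-fold. The same probe set read 6.82, 6.72 and 6.78 with AZ628 in WiDr, against the vehicle values above, a difference of 0.80 (SE 0.11). In HT29 it read 7.75, 7.70 and 7.78 with AZ628, against 6.03, 6.08 and 5.64 with vehicle, a difference of 1.83 (SE 0.11). By group mean, IKKα shRNA (12.13 ± 0.10, SD, n = 3), AZ628 in HT29 (7.75 ± 0.04) and AZ628 in WiDr (6.77 ± 0.05) were apart from their neighbours in order. The control shRNA (5.79 ± 0.09) and the vehicle groups of HT29 (5.92 ± 0.24) and WiDr (5.98 ± 0.21) overlapped.

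The other probe sets of PRSS1 did not show differences of that size. The leading one owed its place to the IKKα shRNA arrays, with a mean over all arrays of 7.39 against 7.27 for 11760150_x_at. With control shRNA and vehicle in WiDr, 11760150_x_at was the brighter, at 6.98 and 7.16 against 5.79 and 5.98. The leading probe set was thus picked in part by the difference it shows. On 11760150_x_at the IKKα shRNA arrays read 7.56, 7.59 and 7.88, against 6.80, 7.07 and 7.09 with control shRNA, a difference of 0.69 (SE 0.13) that was called higher. Its AZ628 differences, 0.32 in WiDr and 0.34 in HT29, were not called. On 11760149_a_at the difference from control shRNA was 0.32 (SE 0.09), which was called. That call was lost without control shRNA replicate 1 (0.23) or without IKKα shRNA replicate 3 (0.26). As a mean of the 3 probe sets the PRSS1 difference was 2.45 for IKKα shRNA against control shRNA and 2.27 against vehicle, with 0.36 for AZ628 in WiDr and 0.74 in HT29. The fold of PRSS1 thus depends on which probe set is read, and all of them were higher with IKKα shRNA than with control shRNA.

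PRSS2, anionic trypsinogen, could be read only together with its relatives. The probe set 11744079_s_at, tied to PRSS2, PRSS3 and the pseudogene PRSS3P2, read 13.32, 13.54 and 13.28 with IKKα shRNA, against 8.27, 8.29 and 8.31 with control shRNA and 8.10, 8.41 and 8.25 with vehicle. With AZ628 it read 8.92, 8.94 and 8.99 in WiDr, against those vehicle values, and in HT29 it read 10.18, 10.08 and 10.06 with AZ628, against 8.40, 8.51 and 8.35 with vehicle. Every treated array lay above every array of its control. The log2 differences were 5.09 (SE 0.08, 33.9-fold) for IKKα shRNA against control shRNA, 0.70 (SE 0.08) for AZ628 in WiDr and 1.68 (SE 0.08) in HT29.

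The second shared probe set, 11744080_x_at, is tied to PRSS1, PRSS2, PRSS3P1 and PRSS3P2. It read 12.85, 13.08 and 12.81 with IKKα shRNA, against 7.48, 7.29 and 7.51 with control shRNA and 7.10, 7.45 and 7.45 with vehicle. With AZ628 it read 8.11, 8.20 and 8.25 in WiDr, against that vehicle group. The HT29 arrays read 9.40, 9.34 and 9.40 with AZ628, against 7.37, 7.48 and 7.49 with vehicle. Its groups fell in the same way, with IKKα shRNA highest, AZ628 in between and the controls lowest. The differences were 5.49 (SE 0.09, 44.9-fold) for IKKα shRNA against control shRNA, 0.85 (SE 0.09) for AZ628 in WiDr and 1.93 (SE 0.09) in HT29. How much of either shared signal, or of the _x_at probe set of PRSS1, came from each gene was not tested, since probes of that kind can bind transcripts of several relatives.

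PRSS3, mesotrypsinogen, a trypsin that resists and degrades protein inhibitors of trypsin, differed in its pattern from the shared signal that also names it. Its leading probe set, 11719384_at, read 12.32, 12.35 and 12.27 with IKKα shRNA, against 11.70, 11.82 and 11.76 with control shRNA and 11.67, 11.89 and 11.82 with vehicle. With AZ628 it read 9.82, 9.83 and 9.85 in WiDr, against that vehicle group, and in HT29 it read 9.78, 9.73 and 9.62 with AZ628, against 11.36, 11.21 and 11.26 with vehicle. The AZ628 arrays were below, and the IKKα shRNA arrays above, all their control arrays. The log2 differences were 0.55 (SE 0.07) for IKKα shRNA against control shRNA, -1.96 (SE 0.07), 3.90-fold lower, for AZ628 in WiDr and -1.57 (SE 0.07), 2.96-fold lower, in HT29. The second PRSS3 probe set, 11751745_x_at, gave 0.42, -1.95 and -1.48 for the same comparisons, all called. On both probe sets of PRSS3 every AZ628 array lay below every vehicle array of its line, whereas on the leading PRSS1 probe set and both shared ones every AZ628 array lay above.

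**Figure D1:**
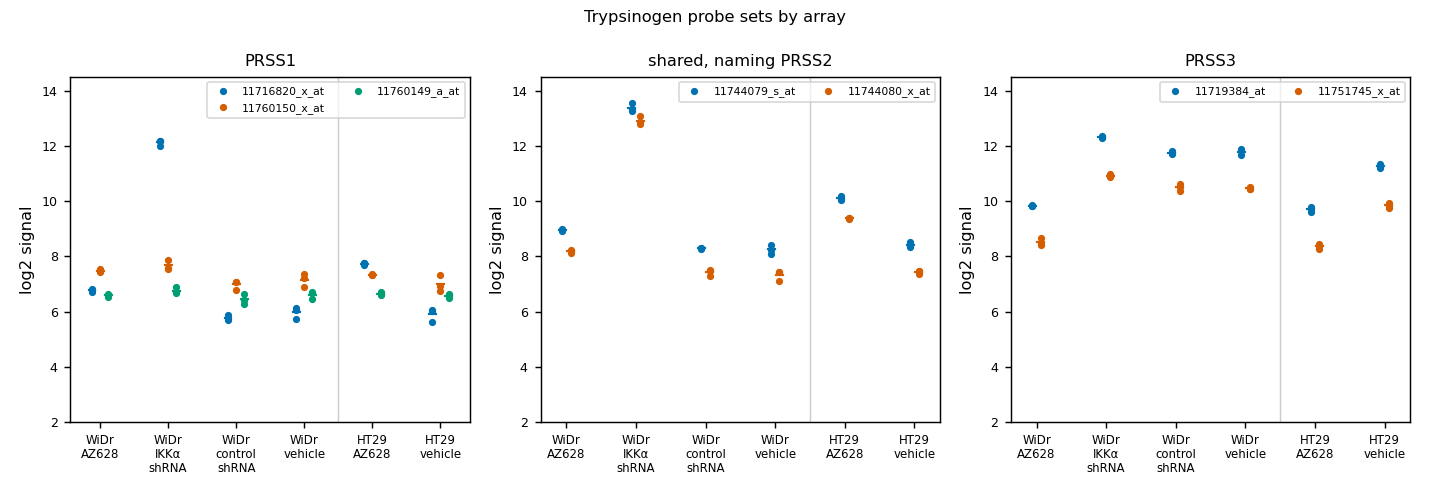
RMA log2 signal (y axis) of the trypsinogen probe sets in the 6 groups (x axis), 3 arrays a group, in panels for PRSS1, for the shared probe sets that name PRSS2, and for PRSS3; points are arrays and dashes are group means. The leading PRSS1 probe set and both shared ones stand above 12 in the IKKα shRNA arrays and below 11 in all others, while the PRSS3 probe sets are lowest in the AZ628 arrays.

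PLAU encodes urokinase. Its leading probe set, 11717886_a_at, read 8.13, 8.02 and 7.82 with IKKα shRNA, against 5.28, 5.51 and 5.44 with control shRNA and 4.84, 5.16 and 4.98 with vehicle. The IKKα shRNA arrays lay above all others, a difference of 2.58 (SE 0.11), or 5.98-fold, from control shRNA and of 3.00 (SE 0.11), or 8.00-fold, from vehicle. In WiDr it read 4.75, 4.61 and 4.54 with AZ628, a difference of -0.36 (SE 0.11) from vehicle that was called lower. That call was lost without AZ628 replicate 3 (-0.31) or without vehicle replicate 2 (-0.27). HT29 arrays read 4.71, 4.80 and 4.81 with AZ628, against 5.05, 4.71 and 5.03 with vehicle, and these arrays overlapped. All groups but IKKα shRNA were therefore dim on this probe set, under the median probe set of the array.

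The other probe sets of PLAU were dimmer. On 11717154_a_at the IKKα shRNA arrays read 5.04, 5.21 and 5.05, against 4.17, 4.06 and 4.17 with control shRNA, a difference of 0.97 (SE 0.13), or 1.96-fold, that was called. On 11754119_a_at the difference was 0.18 and was not called. As a mean of the 3 probe sets the PLAU difference from control shRNA was 1.24, less than the 2.58 of the leading one.

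PLAUR, the receptor that holds urokinase at the cell surface, differed most with AZ628. Its leading probe set, 11742819_at, read 6.39, 6.63 and 6.41 with AZ628 in WiDr, against 8.87, 8.72 and 8.83 with vehicle. The HT29 arrays read 6.65, 6.55 and 6.41 with AZ628, against 8.46, 8.36 and 8.37 with vehicle. The AZ628 arrays of both lines overlapped each other and lay below every array of the other groups. The difference was -2.33 (SE 0.09), 5.02-fold lower, in WiDr and -1.86 (SE 0.09), 3.64-fold lower, in HT29. All 5 probe sets of PLAUR were called lower with AZ628 in each line, with differences of -2.60 to -2.29 in WiDr and -2.14 to -1.44 in HT29.

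With IKKα shRNA the sign for PLAUR depended on the control and on the probe set. The leading probe set read 8.68, 8.75 and 8.91 with IKKα shRNA, against 9.19, 9.42 and 9.40 with control shRNA, a difference of -0.56 (SE 0.09), and it overlapped the vehicle arrays. Over the 5 probe sets the difference from control shRNA ran from -0.56 to 0.03, with 2 called lower. The difference from vehicle ran from -0.03 to 0.33, with 1 called higher. As a mean of the 5 probe sets it was -0.25 against control shRNA and 0.18 against vehicle, both past the threshold.

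PLAT, tissue plasminogen activator, was dim. Its 7 probe sets had means that exceeded between 3.0% and 46.9% of all probe sets, and the leading one, 11747398_a_at, read between 5.37 and 6.06 over the 18 arrays. None of the 7 was called with AZ628, where differences ran from -0.13 to 0.21 in WiDr and from -0.14 to 0.19 in HT29, and limma gave 0 at an unadjusted p under 0.05 in either line. With IKKα shRNA against control shRNA, 2 of the 7 were called higher, 11715847_x_at by 0.38 (SE 0.09) and 11754545_x_at by 0.32 (SE 0.07). All 6 group means of the leading probe set overlapped their neighbours in order.

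**Figure D2:**
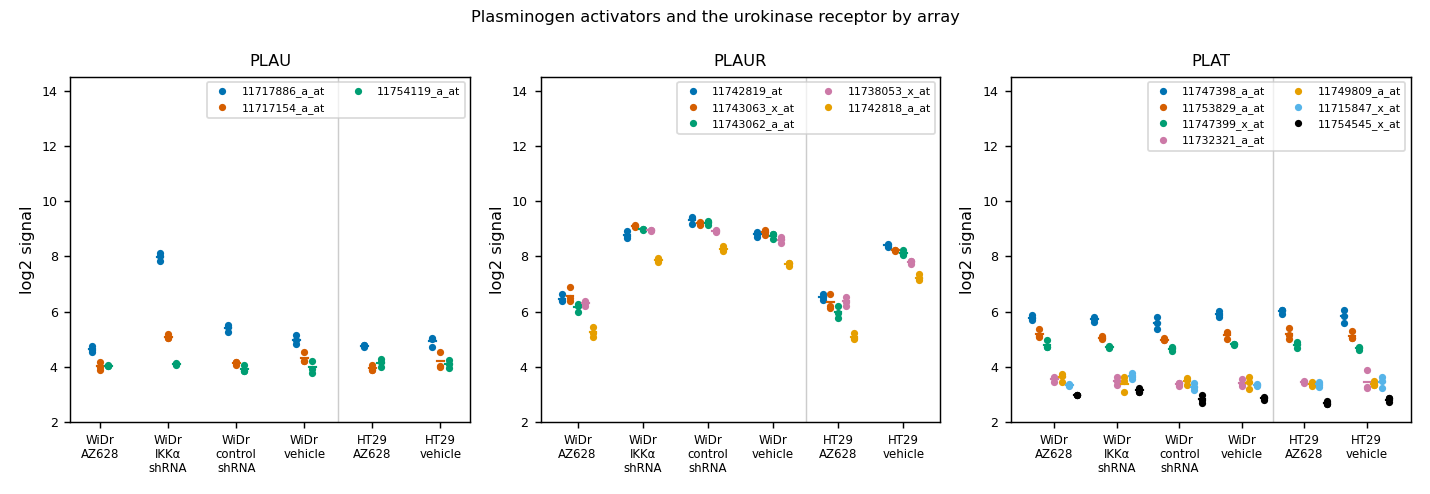
RMA log2 signal (y axis) of every probe set of PLAU, PLAUR and PLAT in the 6 groups (x axis), 3 arrays a group; points are arrays and dashes are group means. The leading PLAU probe set is near 8 in the IKKα shRNA arrays and between 4.54 and 5.51 in all others, and the PLAUR probe sets are lowest in the AZ628 arrays of both lines.

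MMP7 was lower with AZ628 on 3 of its 4 probe sets. The leading one, 11744030_a_at, read 9.80, 9.96 and 9.77 with AZ628 in WiDr, against 11.45, 11.19 and 11.28 with vehicle. The HT29 arrays read from 9.82 to 10.07 with AZ628, against 11.68, 11.76 and 11.56 with vehicle. The AZ628 arrays lay below all 12 others. The difference was -1.46 (SE 0.08), 2.76-fold lower, in WiDr and -1.70 (SE 0.08), 3.25-fold lower, in HT29. The 3 called probe sets ran from -1.49 to -1.40 in WiDr and from -1.78 to -1.69 in HT29. The fourth, 11761764_at, was dim, and its differences of -0.26 and -0.07 were not called.

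With IKKα shRNA no MMP7 probe set was called against control shRNA. The leading one read 11.47, 11.47 and 11.59 with IKKα shRNA, against 11.62, 11.67 and 11.72 with control shRNA, and over the 4 probe sets the difference ran from -0.16 to 0.28. Against vehicle 2 probe sets were called higher, by 0.28 and 0.41. MMP7 thus differed by more than 1 log2 unit with AZ628 and by less than 0.5 with IKKα shRNA.

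MMP14 differences were small. The leading probe set, 11725988_at, read 7.21, 7.18 and 7.44 with AZ628 in WiDr, 7.31, 7.38 and 7.27 with IKKα shRNA, 6.90, 7.11 and 7.11 with control shRNA and 6.84, 7.18 and 6.88 with vehicle. HT29 arrays read 7.25, 7.33 and 7.14 with AZ628, against 6.89, 6.67 and 6.74 with vehicle. The difference was called in HT29 (0.47, SE 0.10), and the arrays with and without AZ628 did not overlap there. In WiDr the AZ628 difference was 0.31 (SE 0.10), a call that was lost without AZ628 replicate 3 (0.23), vehicle replicate 1 (0.25) or vehicle replicate 3 (0.27). The IKKα shRNA difference of 0.28 from control shRNA was lost without control shRNA replicate 1 (0.21), IKKα shRNA replicate 1 (0.29) or IKKα shRNA replicate 2 (0.25), and that of 0.35 from vehicle was lost without vehicle replicate 1 (0.29). A second probe set, 11725989_x_at, was called higher by 0.35 and 0.45 with AZ628 in WiDr and HT29, and by 0.37 with IKKα shRNA against control shRNA. Another, 11725987_a_at, was called only with IKKα shRNA against control shRNA (0.26), and that call was lost without either of IKKα shRNA replicates 1 (0.20) and 2 (0.26) or of control shRNA replicates 1 (0.25) and 3 (0.24). The remaining one, 11747717_a_at, was not called in the AZ628 or IKKα shRNA comparisons.

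ST14 was higher with each treatment on its leading probe set, 11715965_at. It read 11.94, 11.91 and 11.96 with AZ628 in WiDr, 11.70, 11.78 and 11.62 with IKKα shRNA, 11.13, 11.26 and 11.21 with control shRNA and 11.11, 10.91 and 10.95 with vehicle. In HT29 it read 11.73, 11.69 and 11.78 with AZ628, against 11.16, 11.14 and 11.09 with vehicle. Every treated array lay above every control array. The difference was 0.95 (SE 0.07, 1.93-fold) for AZ628 in WiDr, 0.60 (SE 0.07, 1.52-fold) in HT29 and 0.50 (1.41-fold) for IKKα shRNA against control shRNA. The second probe set, 11748085_a_at, read 0.16 and 0.15 higher with AZ628 in WiDr and HT29, which was not called, and 0.46 (SE 0.12) higher with IKKα shRNA against control shRNA, which was.

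**Figure D3:**
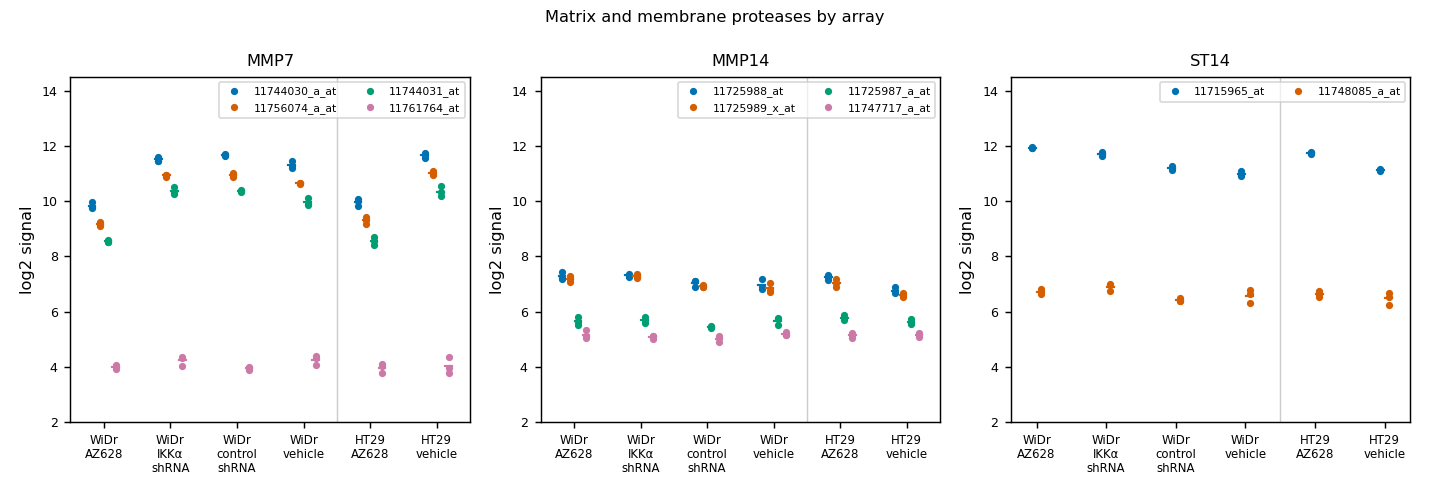
RMA log2 signal (y axis) of every probe set of MMP7, MMP14 and ST14 in the 6 groups (x axis), 3 arrays a group; points are arrays and dashes are group means. In the AZ628 arrays of both lines 3 probe sets of MMP7 are low, and the leading ST14 probe set is above its control arrays.

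**Figure D4:**
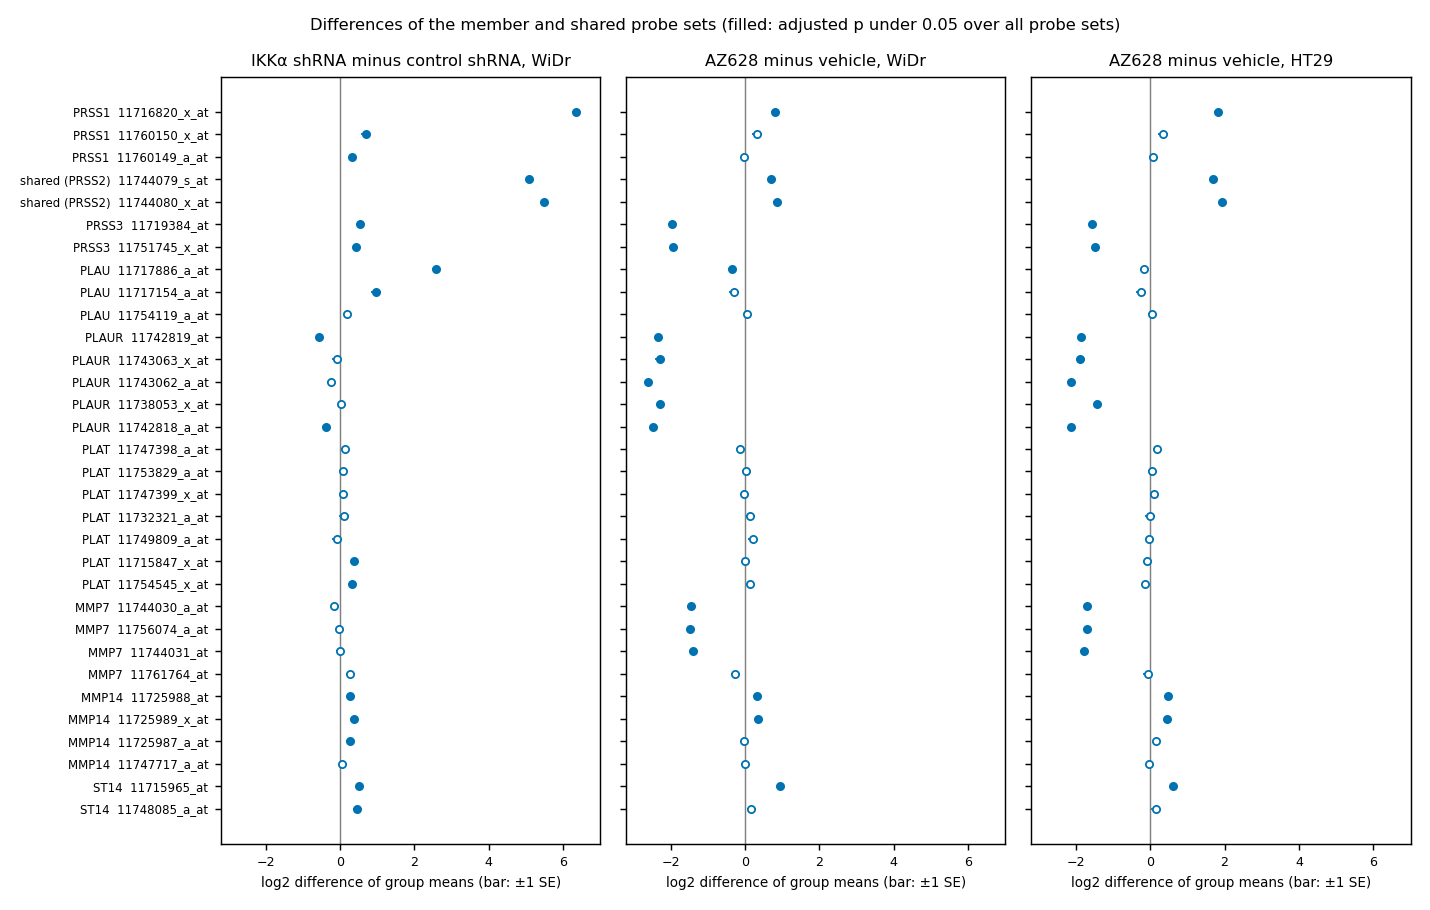
Log2 difference (x axis) of each member and shared probe set, with bars of 1 SE, for IKKα shRNA minus control shRNA, AZ628 minus vehicle in WiDr and AZ628 minus vehicle in HT29; filled points had an adjusted p under 0.05. The leading PRSS1 and the shared probe sets lie above 5 in the IKKα shRNA panel, and the PLAUR probe sets lie below -1.4 in both AZ628 panels.

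The AZ628 effects were set against each other between the lines, using the arrays that chose the genes, so nothing is read from the count here either. Of the 30 member probe sets, 5 had a higher difference in HT29 than in WiDr and 1 a lower one, where 2.43% of all probe sets were called higher and 3.08% lower. On the leading PRSS1 probe set the AZ628 effects given above differed by 1.03 (SE 0.15). The shared probe sets gave 0.99 (SE 0.12) and 1.08 (SE 0.13), so that the difference with AZ628 was larger in HT29 for all 3 signals. As a mean of its 3 probe sets, PRSS1 gave 0.38, which was not called. The PLAUR probe set 11738053_x_at was lowered less in HT29 than in WiDr, by 0.86 (SE 0.11). It averaged 6.37 in HT29 and 6.31 in WiDr with AZ628, and 7.81 and 8.61 with vehicle. PLAU, PLAT, MMP7 and MMP14 had no probe set called. The count of 6 dropped to 2 without WiDr vehicle replicate 3 and to 3 without HT29 AZ628 replicate 1.

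HT29 and WiDr with vehicle were also compared, a contrast that shares its vehicle arrays with those that chose the genes, and here 3 member probe sets were higher in HT29 and 8 lower, where 14.1% of all were called higher and 12.4% lower. PRSS3 was lower in HT29 on both probe sets, by -0.52 (SE 0.07, limma adjusted p = 1.26e-05) and -0.62 (SE 0.08, adjusted p = 9.14e-06). PLAUR was lower in HT29 on all 5 probe sets, with differences of -0.80 to -0.41. MMP7 was higher in HT29 on 3 of 4, by 0.35 to 0.39, with 0.36 on the leading one (adjusted p = 0.00346). One MMP14 probe set, 11725989_x_at, was lower in HT29 (-0.26, adjusted p = 0.0413), and its call was lost without WiDr vehicle replicate 2 (-0.16) or HT29 vehicle replicates 1 (-0.22) or 2 (-0.24). The leading PRSS1 probe set (-0.06, adjusted p = 0.788), PLAU (-0.06, adjusted p = 0.774) and ST14 (0.14, adjusted p = 0.143) were not called.

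Cells transduced with control shRNA were also set against vehicle in WiDr, since IKKα shRNA was compared with both. Both groups served as controls in the contrasts that chose the genes, so the p-values here are not independent of that choice. Here 9 member probe sets were called higher and 0 lower, where 9.92% of all were called higher and 6.93% lower, and limma gave 10 and 4 at an unadjusted p under 0.05. The median of the members was -0.03, as over all probe sets. PLAUR was higher on 4 of 5 probe sets, with 0.53 on the leading one (SE 0.09, adjusted p = 0.000707), and the call on 11738053_x_at was lost without vehicle replicate 1 (0.25) or control shRNA replicate 2 (0.29). MMP7 was higher on 3 of 4 probe sets, with 0.36 on the leading one (adjusted p = 0.00805). The leading PLAU probe set was higher by 0.42 (SE 0.11, adjusted p = 0.0137), and its call was lost without vehicle replicate 1 (0.34) or control shRNA replicate 2 (0.37). The other PLAU probe sets gave -0.19 and -0.04, and the mean of the 3 gave 0.06 (adjusted p = 0.578). The leading ST14 probe set was higher by 0.21 (adjusted p = 0.0362), and its call was lost without vehicle replicates 2 (0.17) or 3 (0.19) or control shRNA replicates 2 (0.18) or 3 (0.21). The second ST14 probe set gave -0.14, and the mean of both gave 0.03 (adjusted p = 0.728). The leading PRSS1 probe set (-0.19, adjusted p = 0.247), the leading PRSS3 one (-0.03, adjusted p = 0.79) and the shared ones (0.04 and 0.09) were not called.

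Other proteases of the same classes moved in both directions. The counts of this and the following lists, with 1 probe set a gene, stand beside the shares over all probe sets, which were 14.2% higher and 15.5% lower with IKKα shRNA against control shRNA, 20.2% and 19.0% with AZ628 in WiDr, and 19.6% and 18.7% with AZ628 in HT29. A list's share near these is no result about the list. Of 24 other trypsin-like proteases, 6 were called higher and 8 lower with IKKα shRNA against control shRNA, 7 higher and 4 lower with AZ628 in WiDr, and 6 and 6 with AZ628 in HT29. With IKKα shRNA, PRSS8 (prostasin, a membrane-anchored protease that acts together with matriptase) rose by 1.17 (SE 0.07) and PRSS23 by 1.15 (SE 0.06), while KLK11, a kallikrein, fell by 2.13 and the membrane protease TMPRSS4 fell by 1.07. Control shRNA itself stood above vehicle by 0.80 for KLK11 and by 0.75 for TMPRSS4. Against vehicle, IKKα shRNA gave -1.34 for KLK11, 1.23 for PRSS8 and 1.36 for PRSS23. With AZ628, TMPRSS2 rose by 1.83 in WiDr and 2.23 in HT29, and KLK10 fell by 2.41 in WiDr and fell by 2.20 in HT29. Of 26 other metalloproteases, 8 were called higher and 1 lower with IKKα shRNA, 3 and 3 with AZ628 in WiDr, and 2 and 4 with AZ628 in HT29. The interstitial collagenase MMP1 rose by 0.83 with IKKα shRNA in WiDr and fell by 1.45 with AZ628 in HT29. Its AZ628 effect in HT29 differed from that in WiDr by -1.27 (SE 0.18). With vehicle, MMP1 stood 1.44 higher in HT29 than in WiDr. ADAM17, a sheddase of cell surface proteins, rose by 0.72 with IKKα shRNA, ADAM8 fell by 1.03, and ADAM15 differed by -0.98 and -1.05 with AZ628 in WiDr and HT29. Against vehicle, IKKα shRNA gave 0.91 for ADAM17 and -0.68 for ADAM8.

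Among the inhibitors of these enzymes 21 of 24 listed genes were measured. With IKKα shRNA, with AZ628 in WiDr and with AZ628 in HT29, 8 were called higher and 4 lower in each case. TIMP2, an inhibitor of matrix metalloproteases that also takes part in MMP2 activation by MMP14, rose by 1.88 with IKKα shRNA, 1.70 with AZ628 in WiDr and 1.24 with AZ628 in HT29. SPINK1, the pancreatic secretory inhibitor of trypsin, rose with AZ628 by 1.22 (SE 0.07) in HT29 and by 1.84 (SE 0.07) in WiDr, a difference of -0.63 (SE 0.10) between the lines. SERPINA1, which inhibits neutrophil elastase and trypsin, fell by 1.64 with IKKα shRNA. SERPINA3 rose by 1.43 with IKKα shRNA and fell by 1.36 with AZ628 in WiDr. SERPINE2, which inhibits urokinase, thrombin and trypsin, fell with AZ628 in both lines, by -1.01 in HT29. TFPI, the inhibitor of the tissue factor pathway, fell by 1.40 with IKKα shRNA.

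Receptors and substrates gave 23 measured genes of 25 listed. With IKKα shRNA 6 were called higher and 5 lower, with AZ628 in WiDr 6 and 8, and with AZ628 in HT29 5 and 6. FN1, fibronectin, rose by 2.33 and SPP1, osteopontin, by 2.11 with IKKα shRNA in WiDr. In the other line, HT29, SPP1 fell by 1.99 with AZ628. Its AZ628 effect in HT29 differed from that in WiDr by -1.94 (SE 0.17). With vehicle, SPP1 stood 6.32 higher in HT29 than in WiDr. LAMB3, a laminin chain, rose by 1.24 with IKKα shRNA and by 1.95 and 1.62 with AZ628 in WiDr and HT29. Of 19 AP-1 and ETS regulators, 4 were called higher and 6 lower with IKKα shRNA, 6 and 7 with AZ628 in WiDr, and 6 and 8 with AZ628 in HT29. With AZ628 the ETS factor ETV5 differed by -4.90 in WiDr and -5.09 in HT29, and ETV1 by -4.50 and -3.74. ETV4 was lower in both lines, by -2.56 in WiDr, and FOSL2, an AP-1 member, rose by 2.12 in WiDr. FOS fell by 1.69 and JUNB by 0.61 with IKKα shRNA against control shRNA, and FOSL2 rose by 0.53. Against vehicle, FOS differed by -3.19, JUNB by -0.81 and FOSL2 by 1.01. Control shRNA itself differed from vehicle by -1.50 for FOS.

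Markers of pancreatic acinar cells, the usual source of trypsinogens, stayed dim while the PRSS1 signal was high. Of the 16 listed, 12 were measured, and their mean per array was 4.42 to 4.49 with IKKα shRNA, 4.35 to 4.42 with control shRNA and 4.48 to 4.57 with vehicle in WiDr, with 0 of 12 above the median probe set with IKKα shRNA and 1 in either control. PTF1A was the 1 acinar marker called with IKKα shRNA against control shRNA, where it rose by 0.32 (SE 0.09). When IKKα shRNA was set against vehicle, 0 of 12 were called higher and 1 lower. That was CELA3A at -0.35 (SE 0.09), and PTF1A was not called. With AZ628, CEL rose by 0.35 in WiDr and 0.63 in HT29 and no other acinar marker was called. Markers of colorectal epithelium moved with IKKα shRNA against control shRNA, 0 of 13 higher and 6 lower, with LGALS4 and VIL1 down by -1.71 and -1.16. Against vehicle 1 of 13 was called higher and 4 lower, with LGALS4 at -1.50 and VIL1 at -0.41. Control shRNA itself stood above vehicle by 0.21 for LGALS4 and by 0.75 for VIL1. With AZ628 6 of 13 were called higher and 4 lower in WiDr, and 6 and 3 in HT29. Of 14 stromal and blood markers 3 were called higher and 1 lower with IKKα shRNA, and 2 and 2 with AZ628 in each line. LUM rose by 2.84 (SE 0.12) and VIM by 1.10 (SE 0.10) with IKKα shRNA against control shRNA, and CD14 differed by -1.25 (SE 0.12), while the mean of the 14 was 5.50 to 5.59 per array with IKKα shRNA and 5.28 to 5.35 with control shRNA. Against vehicle the differences were 3.19 for LUM, 1.25 for VIM and -0.53 for CD14. For CD14 control shRNA itself stood above vehicle by 0.71. The part of these shifts in the protease values was not tested.

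Genes whose group means followed a member most closely were named by Pearson's r over the 6 group means, among 2660 genes with an SD of these means of at least 0.5. This is a description over 6 points that share arrays and normalization. For the leading PRSS1 probe set they were HSPB8 (r = 0.9829), CSTA (0.9731) and CLCN5 (0.9677). HSPB8 averaged 6.59 with IKKα shRNA and 4.33 with AZ628 in WiDr. In HT29 with AZ628 and with vehicle, HSPB8 averaged 4.62 and 4.39, CSTA 3.75 and 3.59, and CLCN5 6.06 and 5.68. The leading PRSS1 probe set averaged 7.75 and 5.92 in these groups. For PLAU they were FKBP14 (0.9910), PLAC1 (0.9901) and SOCS2 (0.9899). PRSS1, PLAU and the genes named with them were all highest with IKKα shRNA, so their r rests largely on that group. For PRSS3 they were EMP1 (0.9966), IARS1 (0.9957) and SRPK1 (0.9943). For PLAUR they were IRAK1 (0.9985), AMD1 (0.9982) and LETM1 (0.9975), and for MMP7 they were MAP2K3 (0.9980), MASTL (0.9978) and MAP6D1 (0.9974).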

How the data were processed

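RNA from 18 arrays of the cell lines WiDr and HT29 was analysed. The authors deposited log2 signals per probe set. Per the submitters' processing notes these come from RMA, and limma and R 3.0.2 are named there too. RMA draws arrays to a common distribution and compresses dim signals, so shifts shared by most transcripts are hidden and folds of dim genes are understated. Arrays have no read depth, and their number limits the precision. The labels name a whole-transcript labelling assay, but probe set names have the form of 3′ arrays, which was not resolved.

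Of 49395 probe sets, 102 controls were left out. The probe annotation tied 44994 to 1 symbol, 1832 to several and 2569 to none. A 6-group linear model was fitted to all 18 arrays in R 4.3.3 with limma 3.58.1 (lmFit and eBayes, with 12 residual and 5.02 prior degrees of freedom) and the package data.table, version 1.17.8, with two-sided p-values and Benjamini-Hochberg adjustment over the 49293 probe sets of each contrast at a threshold of 0.05. Differences are first minus second group, with limma's moderated SE. Values called higher, lower, rose or fell passed this threshold unless said otherwise. Promoter windows were read and aligned in Python 3.11.15 with Biopython 1.88, and figures were drawn with matplotlib 3.10.9.

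The members and the lists (other trypsin-like proteases, other metalloproteases, inhibitors, receptors and substrates, AP-1 and ETS regulators, acinar, colorectal epithelial, and stromal and blood markers, with 149 of 158 genes measured) were chosen with earlier results of these data known. Named are every member probe set, the up to 4 called members of a list with the largest differences, markers, and the 3 genes most like a member, though not every gene of a list that this allows is printed. Other genes are given by the probe set with the highest mean. CHUK and DUSP6 check the treatments, and CDX1 and the level of KRT18 are named from the marker list. Alternatives were 1 probe set or the mean per gene, leaving out probe sets that bind several transcripts or the dimmest, quantile normalization again, only the groups compared, an intensity trend in eBayes, a 2-fold minimum, the replicate block and leaving out each array.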

Additional observations from a re-analysis of the deposited data

Results flagged for a closer look

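The effect of AZ628 on the log2 signal differed between HT29 and WiDr at limma's threshold for 8 of the 32 probe sets described, where 2.43% of all probe sets were called higher and 3.08% lower. The genes were chosen with the same arrays, so these values are a description. The leading PRSS1 probe set was raised more in HT29, by 1.03, and so were the shared trypsinogen probe sets, by 0.99 for the one that names PRSS2, PRSS3 and PRSS3P2 and by 1.08 for the one that names PRSS1, PRSS2, PRSS3P1 and PRSS3P2. PRSS3 averaged 9.83 in WiDr and 9.71 in HT29 with AZ628 on 11719384_at, and 11.79 and 11.28 with vehicle. On 11751745_x_at it averaged 8.52 and 8.37 with AZ628, and 10.46 and 9.85 with vehicle. PRSS3 thus fell less in HT29, from a lower vehicle level, by 0.40 on 11719384_at and by 0.47 on 11751745_x_at. The first of these calls was lost without WiDr vehicle replicate 2 (0.35) or 3 (0.38), HT29 AZ628 replicate 1 (0.36) or HT29 vehicle replicate 2 (0.36), and the second without WiDr vehicle replicate 3 (0.44) or HT29 AZ628 replicate 2 (0.42).

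PLAUR averaged 6.31 in WiDr and 6.37 in HT29 with AZ628 on 11738053_x_at, and 8.61 and 7.81 with vehicle. On 11742819_at it averaged 6.48 and 6.54 with AZ628, and 8.81 and 8.40 with vehicle. PLAUR thus fell less in HT29, from a lower vehicle level, by 0.86 on 11738053_x_at and by 0.46 on 11742819_at. The call on 11742819_at was lost without WiDr AZ628 replicate 1 (0.42) or 3 (0.43), WiDr vehicle replicate 1 (0.43) or 3 (0.45), HT29 AZ628 replicate 1 (0.41) or 2 (0.46), or HT29 vehicle replicate 2 or 3 (0.45 each). ST14 was raised less in HT29, with a difference of -0.34. That call was lost without any of the 3 WiDr AZ628 arrays (-0.36 to -0.33), WiDr vehicle replicate 2 (-0.30) or 3 (-0.32), HT29 AZ628 replicate 1 (-0.34) or 2 (-0.32), or HT29 vehicle replicate 1 (-0.33) or 2 (-0.34).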

How the results depend on the processing

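The counts of member probe sets past the threshold were 16 for IKKα shRNA against control shRNA, 15 for IKKα shRNA against vehicle, 15 and 14 for AZ628 in WiDr and HT29, 6 for the difference of the AZ628 effects, 11 for HT29 against WiDr and 9 for control shRNA against vehicle. In that order, with 1 probe set per gene, where at most 8 can be called, they were 6, 5, 7 and 6, then 3 for HT29 against WiDr and 4 for control shRNA. With a gene's probe sets averaged they were 7, 7, 6, 6, 2, 3 and 2. Over the 21 probe sets not named as binding several transcripts they were 10, 8 and, for AZ628 in HT29, 9, then 3 for the difference of effects and 7 for HT29 against WiDr. With a 2-fold minimum they were 2, 2, 1 for the difference of effects, and 0 for both HT29 against WiDr and control shRNA, where limma with an unadjusted p under 0.05 and the same minimum also gave 0.

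Leaving out each array gave 13 to 16, 13 to 15, 13 to 16, 14 to 15, 2 to 6, 10 to 12 and 7 to 9. The leading PLAUR probe set, at -0.03 for IKKα shRNA against vehicle, had the other sign when the gene's probe sets were averaged (0.18, past the threshold). The other PLAUR probe sets gave 0.24, 0.22, 0.33 and 0.15 for this comparison, so their average with the leading one is positive. Why the leading one differed from them was not tested. Of 2873 values set against their single probe set, 2765 kept their side of the threshold, 74 lost their call and 33 gained one. Only 1 changed sign with a value past the threshold. Sign changes between values that both missed the threshold were counted as kept. PLAT with AZ628 in WiDr was such a case, at -0.13 on the leading probe set and 0.05 as a mean.

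The replicate numbers were not used to pair the arrays in the main fit. Deviations of same-numbered arrays correlated at -0.303 to 0.323, and 9 of 45 pairs exceeded 0.1. Arrays with different numbers were not correlated in this way, so whether the numbers pair the arrays is not settled. With a replicate block 218 of 224 values kept their call. The leading PLAUR probe set (0.46) and ST14 (-0.34) lost theirs for the difference of AZ628 effects, as did ST14 for control shRNA (0.21, adjusted p = 0.0504) and its second probe set for IKKα shRNA against vehicle (0.32). The PRSS1 probe set 11760150_x_at gained one with AZ628 in WiDr (0.32) and HT29 (0.34).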
